A study of Rattus norvegicus with 62 samples.

Results

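The amygdala of blast-exposed rats was compared with that of sham rats at the sub-acute time-point by bulk RNA sequencing. At this time-point the study tested behavior 1 to 1.5 months after exposure and took the tissue in the weeks after the last test. The animals were chosen by their labels alone, which call this time-point acute, and they numbered 34 of the 62 in the series, 17 blast and 17 sham. All were male Long Evans rats that were about 10 to 12 weeks old at the start. Blast animals had received 3 exposures of 74.5 kPa in a shock tube, 1 every 24 h, and sham animals were handled in the same way without exposure. By the study's methods, both groups went through behavioral testing, fear conditioning with foot shock included, before the tissue was taken. The tissue was punched from the central and basolateral nuclei of both hemispheres, so each library holds RNA of neurons, glia and vessels together, and fewer cells of a type cannot be told apart from less RNA per cell. The other 28 animals, 14 blast and 14 sham, belong to the chronic time-point and are used here to share the estimate of the spread and for comparison. These chronic animals were tested 12 to 14 months after exposure and were therefore older.

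The amygdala is the forebrain region that assigns threat value to sensory input. The basolateral nucleus receives and stores associations between a cue and an aversive event, and the central nucleus sends the output that drives freezing and autonomic responses. Repeated low-level blast in a shock tube is a model of mild traumatic brain injury, which in people is often followed by anxiety and stress-related disorders. The question asked at this time-point is which transcripts of the amygdala differ in abundance between exposed and sham animals while the exposure is recent.

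Genes carry Ensembl IDs in the count table, and 0 of its 32545 IDs could be paired with a symbol from the reference table used. Genes are therefore described by level, by direction and by number, with 4 given by ID, and neither the amygdala label nor its cell types could be checked against marker genes. The total count per animal ran from 37627110 to 78585782 in sham (median 50123693) and from 42197779 to 72512545 in blast (median 54959799). The mean log2 total was 25.70 ± 0.18 (SD, n = 17) in blast and 25.57 ± 0.32 (SD, n = 17) in sham, a difference of 0.13 that did not pass the test (permutation test, two-sided, p = 0.16). Between 19314 and 20375 genes had at least 1 count in a blast animal (median 19764) and between 19292 and 20320 in a sham animal (median 19782). The 10 most abundant genes took between 3.99% and 8.5% of the counts in blast and between 4.63% and 8.46% in sham.

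The animals carry numbers in their labels, and the first digit of these numbers was not spread evenly over the groups. Of the blast animals, 5 had numbers beginning with 1 and 12 had numbers beginning with 2. Of the sham animals, 2 had numbers beginning with 1, 14 had numbers beginning with 2 and 1 had a number beginning with 6. No source says what the digit marks, so results are also given for the 12 blast and 14 sham animals whose numbers begin with 2.

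Blast and sham animals were intermingled on the main axes of variation among the 34 libraries. The first 3 principal components of log2 CPM (counts scaled to the library total adjusted by TMM factors, on a log scale) held 19.4%, 13.2% and 8.4% of the variance. On the first, scores ran from -36.2 to 42.4 in blast (median 1.84) and from -35.0 to 54.7 in sham (median -8.3). On the second, blast animals ran from -37.4 to 20.1 (median -6.14) and sham animals from -28.9 to 51.7 (median 3.02). The upper end of the second component was made by sham replicates 12, 14 and 16, with scores of 51.7, 42.7 and 44.11, and no blast animal reached them. Blast replicate 12 stood alone on the third component with a score of 48.16, where the next library was at 20.42. These 4 libraries lay more than 2.5 scaled median absolute deviations from the median on 1 of the 3 components, a limit chosen after seeing the scores, and all 4 carry numbers beginning with 2. Just under this limit were sham replicate 9, at -2.49 on the third component, and sham replicate 3, at 2.45 on the first. The totals of the 4, between 40129159 and 49180354, lay inside the range of the other animals' totals, but each was under the median of its own group. The 10 most abundant genes took 3.99% of the counts in blast replicate 12, the lowest share of the 34. In sham replicates 12, 14 and 16 they took 7.99%, 7.92% and 6.89%, against a sham median of 6.62%. The Pearson correlation of the score with log2 total was 0.37, -0.28 and -0.49 on components 1, 2 and 3.

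**Figure D1:**
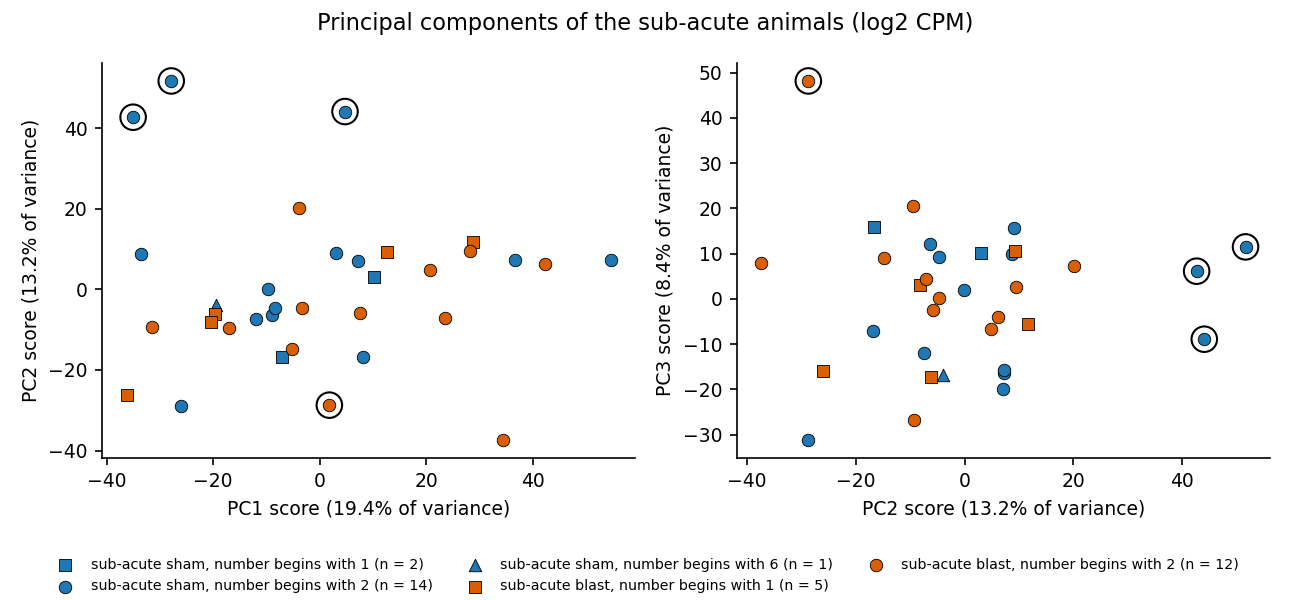
Scores of the 34 sub-acute animals on principal components 1 and 2 (left) and 2 and 3 (right), 1 point per animal, with colors for group, symbols for the first digit of the animal number and rings around the 4 libraries that stand apart. Both groups spread over the same area apart from 3 ringed sham animals at scores of 42.7 to 51.7 on component 2 and 1 ringed blast animal at 48.16 on component 3.

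No single transcript passed the test between exposed and sham animals once the number of genes tested was taken into account. Of the 16535 genes tested in limma's model of the 4 group means over all 62 animals, 0 (0.0%) passed Benjamini-Hochberg adjustment at 0.05, with 0.77 as the lowest adjusted p of any gene. At an unadjusted p under 0.05 there were 857 genes, or 5.18%, of which 499 were higher and 358 lower in blast. edgeR's quasi-likelihood test found 929 genes and DESeq2 found 1062 at the unadjusted level, and neither had a gene with an adjusted p under 0.05. Only 73 genes had an unadjusted p under 0.01 and 2 had one under 0.001. The smallest unadjusted p of all, 0.00041, belonged to a gene whose change was under 1.2-fold.

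With a fold change of at least 1.2 as a further condition, 200 genes (1.21% of those tested) had an unadjusted p under 0.05. Of these, 76 genes (0.46%) were higher in blast, with a median log2 fold change of 0.42, and 124 genes (0.75%) were lower, with a median of -0.54. The number depended on single animals, and it was 122 without sham replicate 12, 130 without sham replicate 14 and 294 without sham replicate 3. The number at an unadjusted p under 0.05 alone was 385 and 401 without sham replicates 12 and 14. It was 521 without sham replicate 16, 516 without blast replicate 9 and 522 without blast replicate 12. Leaving out other animals raised it, to 1174 without sham replicate 3 and 1153 without blast replicate 10, and the median over all such fits was 824. The balance of directions depended on the model, and 14.8% of the genes were higher in blast with edgeR, 18.9% with DESeq2 and 61.7% with surrogate variables in the model, against 38.0% here.

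Most fitted differences were small, although those of genes with few reads were bounded only loosely. The median log2 fold change was -0.00019, with quartiles of -0.084 and 0.081 and 5th and 95th percentiles of -0.26 and 0.20. A change of 1.2-fold or more in either direction was fitted for 1219 genes (7.37%), and 11 genes reached 2-fold. The extremes were a log2 fold change of -1.24 and 1.35. No gene of the 16535 had all blast animals above or all below all sham animals. For each of the 200 genes past both thresholds, every blast animal was paired with every sham animal, and the more frequent order was counted. This order held in a median of 72.7% of pairs, and in at most 84.4%. It was taken without regard to the fitted direction. The genes were picked for their difference, and the share was not computed for other genes. Presence or absence of a transcript did not separate the groups. Of all annotated genes, 23333 had a count in both groups, 1001 in blast animals alone and 1070 in sham animals alone, and none of the latter kinds was seen in more than 7 animals.

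Most genes past both thresholds had few reads. When the genes tested were ordered by mean log2 CPM and divided into 4 abundance bins of nearly equal size, 161 of the 200 came from the lowest bin, whose median count per animal was 26, and 108 of these were lower in blast. The next bins, with median counts of 390, 1488 and 5792, gave 22, 11 and 6 genes. The share past both thresholds went from 3.89% in the lowest bin to 0.532%, 0.266% and 0.145% in the others. The order was not the same without the fold condition, where 4.02%, 4.35%, 6.61% and 5.76% of genes had an unadjusted p under 0.05 from the lowest to the highest bin. The median standard error of the log2 fold change was 0.236, 0.099, 0.075 and 0.073 in these bins. CPM is not divided by gene length, so the bins order genes by the reads they drew and not by transcript number. The 6 genes of the highest bin had small changes, with log2 fold changes between 0.28 and 0.43 for the 4 that were higher in blast and between -0.28 and -0.27 for the 2 that were lower.

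**Figure D2:**
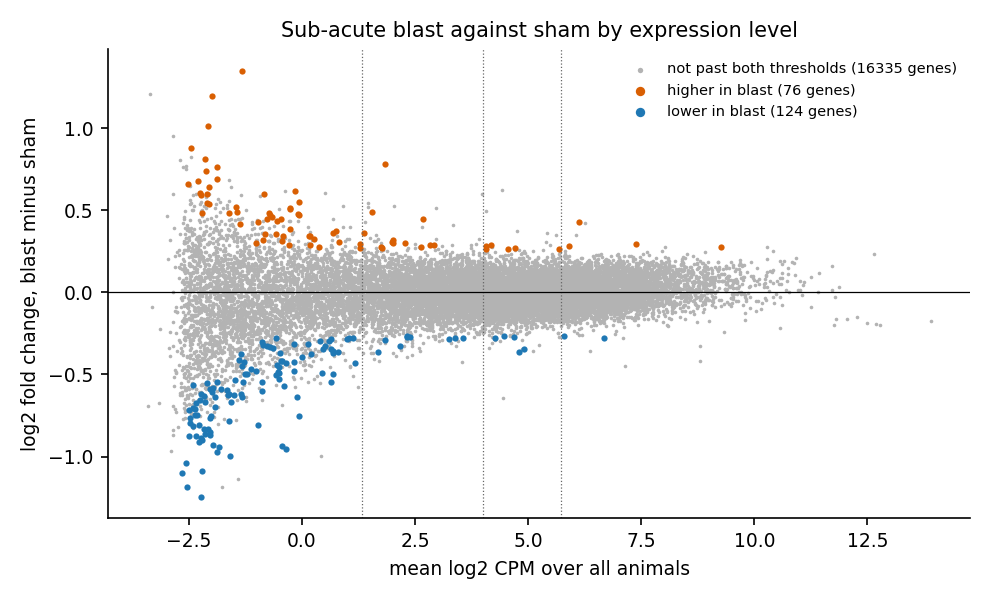
Log2 fold change of blast against sham (y axis) by mean log2 CPM over all animals (x axis), 1 point per gene, with the abundance bins divided by dotted lines. The 76 orange and 124 blue genes past both thresholds lie mostly at the left, where 161 of the 200 fall in the lowest bin and the spread of all genes is widest.

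Because no gene passed adjustment, the intervals show how large a difference these animals could still have held. The 95% confidence interval of the log2 fold change lay wholly inside a 1.5-fold change in either direction for 83.3% of genes, inside 2-fold for 95.2% and inside 1.2-fold for 43.3%. The median standard error was 0.099 on the log2 scale. For genes of the highest bin the interval was inside 1.5-fold in 98.4% of cases and inside 1.2-fold in 64.5%. For genes of the lowest bin these shares were 43.0% and 2.54%.

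**Figure D3:**
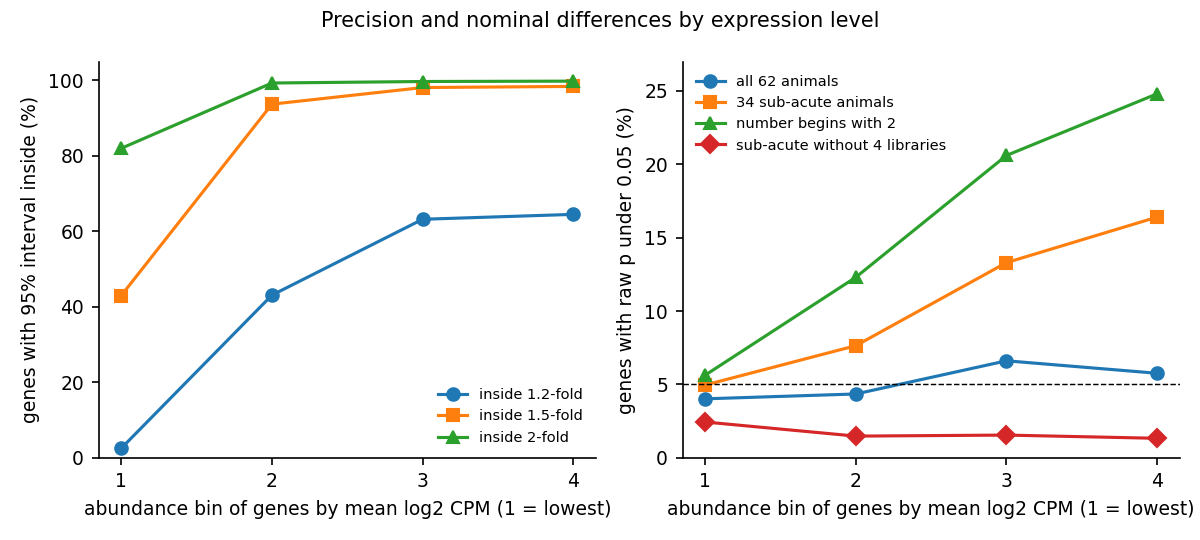
Left, percent of genes whose 95% confidence interval lies inside a 1.2-, 1.5- or 2-fold change, by abundance bin (x axis, 1 = lowest mean log2 CPM). Right, percent of genes with an unadjusted p under 0.05 in 4 sets of animals, with a dashed line at 5%. The share inside 1.5-fold goes from 43.0% to 98.4%, and the share with a small p in the highest bin is 16.4% for the 34 sub-acute animals, 1.33% for the sub-acute animals without 4 libraries and 24.8% for numbers beginning with 2.

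More genes reached an unadjusted p under 0.05 when the sub-acute animals were fitted by themselves. In that model 1719 of 15947 genes (10.8%) did so, 848 higher and 871 lower in blast, and the lowest adjusted p by limma was 0.456. Among the 26 animals with numbers beginning with 2 alone, the number was 2582 of 15903 (16.2%), with 1305 higher and 1277 lower in blast and a lowest adjusted p of 0.281. With the number series as a term in the model of the 34 animals it was 1145. The share was larger in the bins with more reads. It was 4.96% in the lowest bin and 16.4% in the highest bin for the sub-acute animals, and 5.63% and 24.8% for the animals with numbers beginning with 2.

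The number of genes with a small p depended on the 4 libraries that stand apart. Without them, 267 of 15967 genes (1.67%) had an unadjusted p under 0.05 among the 30 remaining sub-acute animals, and 450 of 15841 (2.84%) did so among those with numbers beginning with 2. Both shares lie under the 5% of an even distribution, and for the 30 animals the bin of the largest p held 6.04% of genes. Sham replicates 12, 14 and 16 lay at an end of component 2 that no blast animal reached. Leaving them out therefore narrows the group difference by construction, and the shares without them are not a baseline. In the highest bin the share was 1.33% for the sub-acute animals without these libraries, against 16.4% with them. The size of the fall depended on the limit. With a limit of 3 deviations, which leaves out 2 libraries, 602 genes (3.79%) had an unadjusted p under 0.05, with a limit of 2.4 and 6 libraries left out it was 447 (2.8%), and with a limit of 2 and 7 libraries left out it was 567 (3.56%). When each library was left out by itself, the share over all genes ran from 5.93% without sham replicate 12 to 15.6% without sham replicate 8. The number was 945 without sham replicate 12, 995 without sham replicate 14, 1098 without blast replicate 12 and 1113 without blast replicate 9. No gene had an adjusted p under 0.05 with any single library left out. What sets the 4 libraries apart was not tested.

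**Figure D4:**
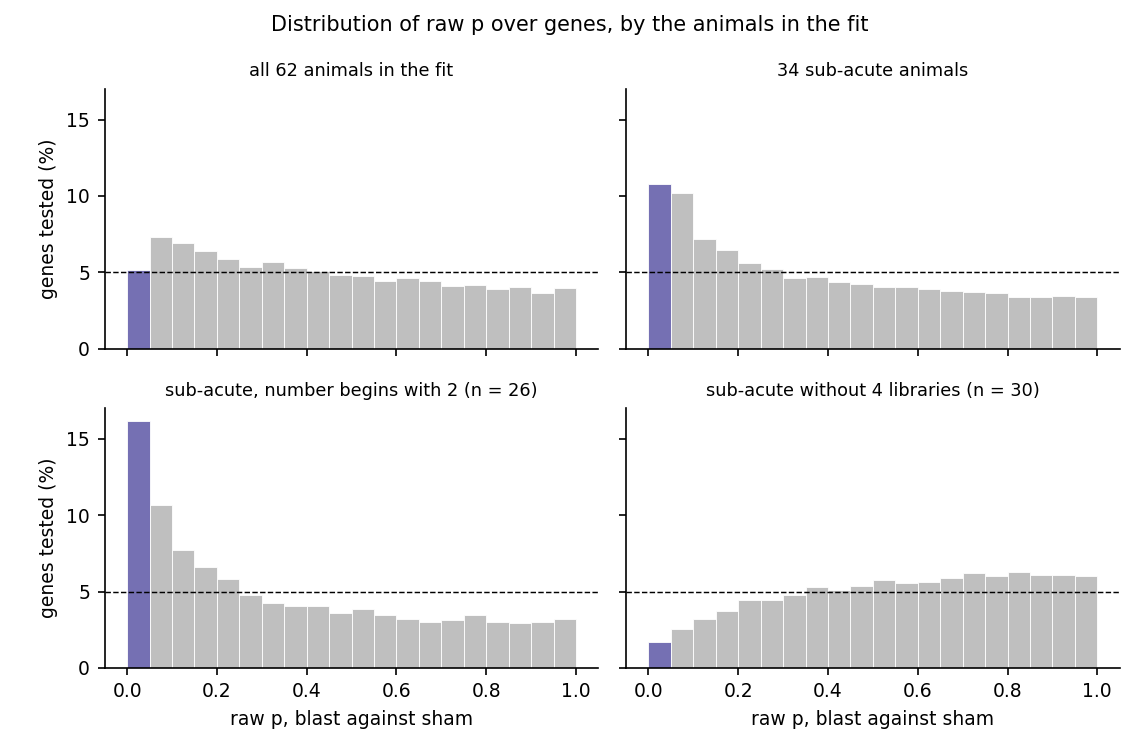
Distribution of the unadjusted p of blast against sham over genes in 20 bins (x axis, p; y axis, percent of genes tested), for 4 sets of animals, with the bin under 0.05 in purple and a dashed line at 5%. The purple bin holds 5.18% of genes with all animals in the model, 10.8% with the sub-acute animals, 16.2% with numbers beginning with 2 and 1.67% without 4 libraries.

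Blast animals did not vary more among themselves than sham animals in most genes. The ratio of the variance of log2 CPM in blast to that in sham was above 1 for 35.7% of genes. Its median was 0.873, 0.828, 0.785 and 0.739 from the lowest to the highest bin. Without the 4 libraries, with 16 blast and 14 sham animals, the median over all genes was 0.896 and 41.5% of genes were above 1. The medians by bin were then 0.943, 0.912, 0.894 and 0.854. Genes of the same animal vary together, so these shares are a description and carry no test.

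The 2 genes with the smallest unadjusted p in each direction among those past both thresholds show what a nominal difference looked like in single animals. They were picked for their difference in these same animals, so their separation, fold changes and intervals are no independent evidence of one. Each lies in the lowest abundance bin. ENSRNOG00000018330 had between 35 and 85 counts in blast animals (median 48) and between 16 and 59 in sham animals (median 35). Its level in log2 CPM ran from -0.47 to 0.67 in blast (median -0.11) and from -1.28 to 0.26 in sham (median -0.52). All 17 blast animals were above the sham median and 9 sham animals were below every blast animal, while the ranges of both groups overlapped. The fitted log2 fold change was 0.51 (SE 0.14, 95% interval 0.22 to 0.79), with an unadjusted p of 0.0007 and an adjusted p of 0.77 in limma's test. The difference in mean log2 CPM was 0.56 among animals with numbers beginning with 2, and -0.07 among the 5 blast and 2 sham animals with numbers beginning with 1.

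ENSRNOG00000028344 showed a similar picture with a wider sham group. Its level ran from -0.58 to 0.51 log2 CPM in blast (median 0.10, counts 31 to 74) and from -1.29 to 0.47 in sham (median -0.50, counts 15 to 77). Of the blast animals, 15 were above the sham median, and 7 sham animals were below every blast animal. The highest sham animals lay within the upper part of the blast group. The log2 fold change was 0.55 (SE 0.16, 95% interval 0.23 to 0.87), with an unadjusted p of 0.001 and an adjusted p of 0.77 in limma's test. The difference in means was 0.56 among numbers beginning with 2 and 0.33 among numbers beginning with 1.

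ENSRNOG00000022505, lower in blast, had so few reads that its level rests on single counts. Blast animals had between 0 and 17 counts (median 5) and sham animals between 3 and 45 (median 9). In log2 CPM this was -4.55 to -1.82 in blast (median -2.82) and -3.43 to -0.13 in sham (median -1.88). Below the sham median lay 15 of the 17 blast animals, and 7 sham animals were above every blast animal. The highest levels, -0.13 and -0.71, belonged to sham replicates 12 and 14, both among the libraries that stand apart. The log2 fold change was -1.24 (SE 0.42, 95% interval -2.09 to -0.40), with an unadjusted p of 0.0045 and an adjusted p of 0.77 in limma's test. This gene passed the filter on low counts only with the chronic animals included, and it was not tested in the 5 models of sub-acute animals. With every gene that has a count kept, the sub-acute animals by themselves gave -1.26 (SE 0.39), while the value was -0.78 with surrogate variables in the model of all animals. Without the 4 libraries that stand apart, the model of all animals gave -1.0. The difference in means was -1.02 among numbers beginning with 2 and -0.56 among numbers beginning with 1.

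ENSRNOG00000002711, also lower in blast, had between 18 and 51 counts in blast animals (median 30) and between 26 and 61 in sham animals (median 39). Its level ran from -1.41 to -0.05 log2 CPM in blast (median -0.85) and from -0.82 to 0.47 in sham (median -0.24). Below every sham animal lay 9 blast animals, and 7 sham animals were above every blast animal. The log2 fold change was -0.48 (SE 0.16, 95% interval -0.81 to -0.16), with an unadjusted p of 0.0045 and an adjusted p of 0.77 in limma's test. The difference in means was -0.41 among numbers beginning with 2 and -0.46 among numbers beginning with 1. Among the 12 blast and 14 sham animals with numbers beginning with 2, less the 4 libraries, the fitted log2 fold change was -0.27, with an unadjusted p of 0.12.

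**Figure D5:**
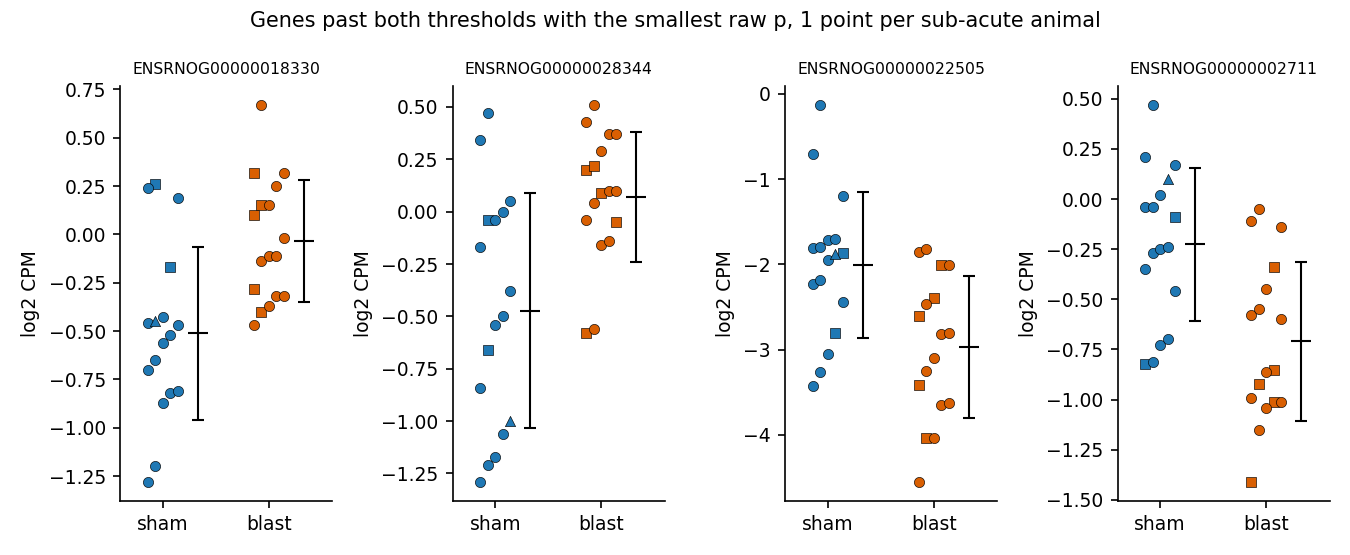
Log2 CPM of 4 genes in each sub-acute animal, 1 point per animal, with blue for sham and orange for blast, squares for numbers beginning with 1, circles for 2 and a triangle for 6, and bars for the mean ± SD (n = 17 per group). The groups overlap in every panel, and all 17 blast animals lie above the sham median of -0.52 for ENSRNOG00000018330. The genes were picked for their difference in these animals.

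The same genes were also compared between the chronic animals, which share no control with the sub-acute ones. Of the 200 genes past both thresholds, 86 (43.0%) had a fold change in the same direction between chronic blast and chronic sham animals, against 52.5% of all genes tested. The median chronic log2 fold change was -0.01 for the genes that were higher in sub-acute blast and 0.07 for those that were lower. At the chronic time-point 413 genes (2.5%) passed both thresholds, and 12 genes did so at both, 4 in the same and 8 in the opposite direction. No expected overlap was computed, so these counts carry no test. Of the 200 genes, 161 lie in the lowest abundance bin, where 3.89% passed both thresholds at the sub-acute time-point against 0.145% in the highest bin. The chronic log2 fold change was -0.08 (SE 0.17) for ENSRNOG00000018330, 0.09 (SE 0.43) for ENSRNOG00000022505 and -0.05 (SE 0.20) for ENSRNOG00000002711. For ENSRNOG00000028344 it was -0.38 (SE 0.18), opposite to the sub-acute value.

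The difference between both time-points was also fitted for these 4 genes as an interaction, chronic minus sub-acute. It was -0.93 (SE 0.24, 95% interval -1.41 to -0.45, unadjusted p = 0.00026) for ENSRNOG00000028344 and -0.58 (SE 0.22, unadjusted p = 0.011) for ENSRNOG00000018330. It was 1.34 (SE 0.60, unadjusted p = 0.03) for ENSRNOG00000022505 and 0.44 (SE 0.26, unadjusted p = 0.098) for ENSRNOG00000002711. The adjusted p in limma's test was 0.838 for each, so none was shown to differ between time-points after adjustment. These genes were picked for their sub-acute difference, which is part of the interaction, and all chronic animals carry numbers beginning with 1, so the time-point and the number series overlap in large part.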

How the data were processed

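RNA of amygdala punches was sequenced by the authors from stranded, rRNA-depleted libraries on a HiSeq2500, aligned with STAR 2.4.2a to the Ensembl Rnor 6.0 genome and counted per gene with featureCounts 1.4.3-p1. The deposited values are raw counts, not normalized, with 1 column per animal. The strand setting of the counting and the treatment of reads with several matches are not given in the sources used here, so values of near-identical, overlapping and antisense genes are uncertain. The labels gave the groups, and replicates are separate animals. The table has 64 columns, of which 2 match no sample and were not used.

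Of 32545 genes, 26364 had a count and 16535 passed edgeR's filterByExpr over all 62 animals. A model of 4 group means was fitted in R 4.3.3 with voom (limma 3.58.1) and TMM factors (edgeR 4.0.16), and p-values were adjusted by Benjamini-Hochberg over all genes tested. The thresholds were a fold change of 1.2 and a p under 0.05. The study's methods write the threshold as a logFC of 1.2, so the one used here is looser, and the stated one was run as an alternative. Log2 CPM used a prior count of 2. The model was tested on simulated counts in which genes were drawn independently and the changed genes differed 2-fold. That test does not cover changes as small as most seen here, or libraries that stand apart. Alternatives included DESeq2 1.42.0 and surrogate variables from sva 3.50.0. Library totals were compared by permutation tests with 100000 resamples. No pair of animals within a group agreed within sampling noise (lowest mean chi-square over genes 15.0).

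The animals, thresholds and gene lists were chosen with earlier results of these data known. The 27 gene lists with 353 symbols and the genes the study depicts could not be used, since no ID was paired with a symbol. The named genes are then the 2 IDs with the smallest raw p in each direction, read as among those past both thresholds.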

Additional observations from a re-analysis of the deposited data

How the results depend on the processing

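In none of the 14 other models run, and at none of the limits below, did a gene pass adjustment at 0.05, and the 200 genes past both thresholds kept their direction in each of the 14 that tested them. Their number was 325 with edgeR, 392 with DESeq2, 745 without the filter on low counts, 327 with sample quality weights and 467 with numbers beginning with 2 only. It was 857 without a fold threshold and 3 at a log2 fold change of 1.2. Without the 4 libraries, a choice made after seeing the data, it was 86 with the sub-acute animals only, 74 with all animals and 119 with numbers beginning with 2. With the sub-acute animals only, it was 116, 132 and 179 at limits of 3, 2.4 and 2 deviations, and with all animals it ran from 122 to 294 when each sub-acute library was left out in turn. With other scaling, the number series as a term, surrogate variables or the sub-acute animals only, the number stayed within 1.5 times, but the genes changed. Of the 200, 120 were lost with surrogate variables, 70 with the number series, 23 with library size alone, 3 with DESeq2 size factors and 54 with the sub-acute animals only, where 165 of the 200 were tested. Only 9 genes (7 higher and 2 lower in blast), ENSRNOG00000018330 and ENSRNOG00000028344 among them, passed both thresholds in each of the 14. A gene that a model did not test counted as not passing, and 159 of the 200 were tested with numbers beginning with 2 only. All 14 models used animals that the genes were picked from, so passing in each is no independent support. The share of genes with an interval inside 1.5-fold was 87.6% with the sub-acute animals only, 86.5% with the number series added, 86.8% with quality weights, 82.2% with the number series as a term over all animals and 90.4% with surrogate variables. Without the 4 libraries it was 88.2%, 84.0% and 84.3% in the order given above, against 83.3%. The cause of these moves was not tested. The difference in log2 library total was 0.07 (permutation p = 0.55) among numbers beginning with 2, again without passing the test. No paired analysis was possible because blast and sham were different animals and the labels give them no common replicate numbers. Depth limits the genes with few reads, and at a median count of 26 the interval lay inside 1.2-fold for 2.54% of genes.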
